A study of Homo sapiens with 6 samples.

Results

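Complement components and regulators were followed in K562, an established human line of erythroleukemia cells from a patient with chronic myeloid leukemia, with and without induced ERG, an ETS transcription factor. The members were given as a list of 35 genes and found as every probe set whose platform annotation carries 1 gene symbol that is on the list, which gave 62 of the 54675 probe sets of the Affymetrix U133 Plus 2.0 array, and 35 of 19775 genes. The list was drawn up with the contrast of induced and non-induced cells already known, so its log2 differences and counts are given here as a description, and the calls are not offered as support for anything.
The ERG-induced cells were CL4, CL9 and CL46, which are 3 clones of K562 stably transfected with pTRE-ERG (ERG3 in the labels), given 1 µg/ml of doxycycline (DOX) each day over 8 days, and the non-induced cells were the same 3 clones without DOX. All 6 cultures thus carried the tetracycline-inducible ERG construct, each group held 3 arrays, and each clone gave 1 array per group. Every induced culture and no other received DOX, so ERG and DOX cannot be told apart here, and a legend of the study has 6 days of DOX in place of 8. The study treats the 3 clones as biological triplicates.

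Complement is a cascade of plasma proteins that marks and lyses foreign or damaged cells. It is started by recognition molecules of the classical and lectin pathways, which carry serine proteases, or by the alternative pathway, which amplifies itself on surfaces. All routes cleave C3 and then C5, and the terminal components C6, C7, C8 and C9 assemble the membrane attack complex, in which C9 forms the pore. Receptors on leukocytes read the fragments, and membrane and soluble regulators protect host cells. Most of the plasma proteins are made by hepatocytes, while properdin, encoded by CFP, comes largely from leukocytes and VSIG4 is a receptor of tissue macrophages. K562 cells are known to carry the regulators CD55 and CD59 on their surface.

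Promoter sequence is shown for the called members with the largest log2 differences, because ERG binds the ETS core GGAA and these are the members on which the results turn. The sequences are from RefSeq, build GRCh38.p14, whose promoter table held 29 of the 35 members, 6 of the 8 called members among them. Each run is the 250 bases before the most upstream start listed for the gene, 5′ to 3′ along the gene, at chr5:39364496-39364745 for C9, chrX:47630306-47630555 for CFP, chrX:66040081-66040330 for VSIG4 and chr4:109802000-109802249 for CFI, all on the minus strand. Capitals mark the ETS core GGAA, or TTCC where it lies on the other strand.
C9: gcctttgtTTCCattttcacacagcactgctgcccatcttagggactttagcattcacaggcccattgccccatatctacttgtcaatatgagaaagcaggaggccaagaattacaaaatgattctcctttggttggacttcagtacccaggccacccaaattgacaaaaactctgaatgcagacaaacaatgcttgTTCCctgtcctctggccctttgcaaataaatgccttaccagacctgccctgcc
CFP: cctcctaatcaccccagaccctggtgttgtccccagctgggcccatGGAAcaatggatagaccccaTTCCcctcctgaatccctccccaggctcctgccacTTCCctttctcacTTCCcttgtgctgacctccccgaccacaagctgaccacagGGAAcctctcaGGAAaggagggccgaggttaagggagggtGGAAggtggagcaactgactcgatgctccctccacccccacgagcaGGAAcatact
VSIG4: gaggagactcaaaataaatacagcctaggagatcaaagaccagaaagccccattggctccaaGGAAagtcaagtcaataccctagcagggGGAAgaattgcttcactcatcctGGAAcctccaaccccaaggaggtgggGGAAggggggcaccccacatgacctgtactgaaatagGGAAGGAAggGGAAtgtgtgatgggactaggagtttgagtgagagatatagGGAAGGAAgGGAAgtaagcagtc
CFI: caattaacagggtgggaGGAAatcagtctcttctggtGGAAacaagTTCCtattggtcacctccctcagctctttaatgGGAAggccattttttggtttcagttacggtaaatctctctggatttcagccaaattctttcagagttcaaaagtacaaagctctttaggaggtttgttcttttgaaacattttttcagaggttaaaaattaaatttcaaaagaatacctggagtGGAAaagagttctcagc
GGAA was searched on both strands and occurred 2 times before C9, 8 times before CFP, 10 times before VSIG4 and 5 times before CFI. It is a common word: 92.7% of 35116 promoter windows of the same length held it at least once, with a median of 3 matches. The median was 4.5 matches over the 6 called members and 4 over the 23 other members with a sequence. The longer form CGGAAG, which contains GGAA, was present before 1 of the 6 called and 5 of the 23 other members (16.5% of all windows), and AGGAAG, which also contains it, before 1 of the 6 and 10 of the 23 (28.7% of all windows). VSIG4 held AGGAAG 2 times and CR1 held CGGAAG 1 time. These member counts used the most upstream start of each gene, and the shares over all windows used every listed start. A further listed start of CFP held AGGAAG 1 time. With only 6 called members the counts cannot show whether called and other members differ, and a match is not a binding site.

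The authors' values are linear ratios to the median of a probe set over the 6 arrays, and they were used here as log2 ratios averaged over the probe sets of a gene. A log2 ratio of 0 is that median for 50737 of the 54675 probe sets, and for the rest the median is lower. Of the 62 member probe sets, only 235770_at of MASP1 has a lower median (a ratio of 0.636). Brightness is thus not part of the values, the level of a member cannot be compared with that of another, and a filter on low values was not possible. All 35 members were kept. The defining markers of K562 cells could not be checked as present or absent for the same reason. The median ratio per array lay between 0.898 and 0.998 in ERG-induced and between 0.990 and 1.07 in non-induced cells, and 3 array controls that detect 18S ribosomal RNA had log2 differences, ERG-induced minus non-induced, of 1.21 (CL4), 0.59 (CL9) and 0.82 (CL46), the part of which in the results below was not tested. ERG itself, over 4 probe sets, differed by -0.76 on the log2 scale (SE 0.63) and was not called. Its differences were -1.35, -0.80 and -0.14 in CL4, CL9 and CL46, and its probe sets gave -1.35, -1.93, -0.50 and 0.72. The position of these probe sets relative to the introduced sequence is unknown, so the arrays are named by their labels. In a bulk culture, fewer cells of a type and less RNA per cell cannot be told apart.

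A gene was called where it changed at least 2-fold with an unadjusted p below 0.05, the thresholds of the study, here from limma fitted over all genes. Of the 35 complement genes, 8 were called higher in ERG-induced cells and 0 lower, where 3.12% of all genes were called higher and 6.32% lower. The 8 were C9 and C7 of the terminal pathway, CFP of the alternative pathway, the receptors VSIG4 and CR1, the regulators CFI and SERPING1, and the lectin FCN3. After Benjamini-Hochberg adjustment over all genes 0 members passed a p of 0.05 in limma (lowest adjusted p = 0.190), with 8 members at an unadjusted p under 0.05, as 12.9% of all genes were. The members had a median log2 difference of 0.27, against -0.03 over all genes, and ran from -1.90 in C5 to 4.65 in C9, with 10 at 1 or more (9.34% of all genes) and 4 at -1 or less (12.5%). The median size of the difference, whatever its sign, was 0.59 in the members and 0.47 over all genes.
By clone, the members had median log2 differences of 0.09, 0.58 and 0.09 in CL4, CL9 and CL46, where 18, 24 and 18 of the 35 were above 0. Over all 19775 genes the medians in these clones were -0.04, -0.06 and -0.04, with 9526, 9383 and 9535 genes above 0. All 3 clones were higher for 11 members and lower for 6, where 17.8% of all genes were higher and 22.4% lower in all 3 clones. Every ERG-induced array lay above every non-induced array in 10 members, the 8 called genes with CFD and CD55, and below in C5, where 7.98% and 13.6% of all genes were apart in these directions.

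**Figure D1:**
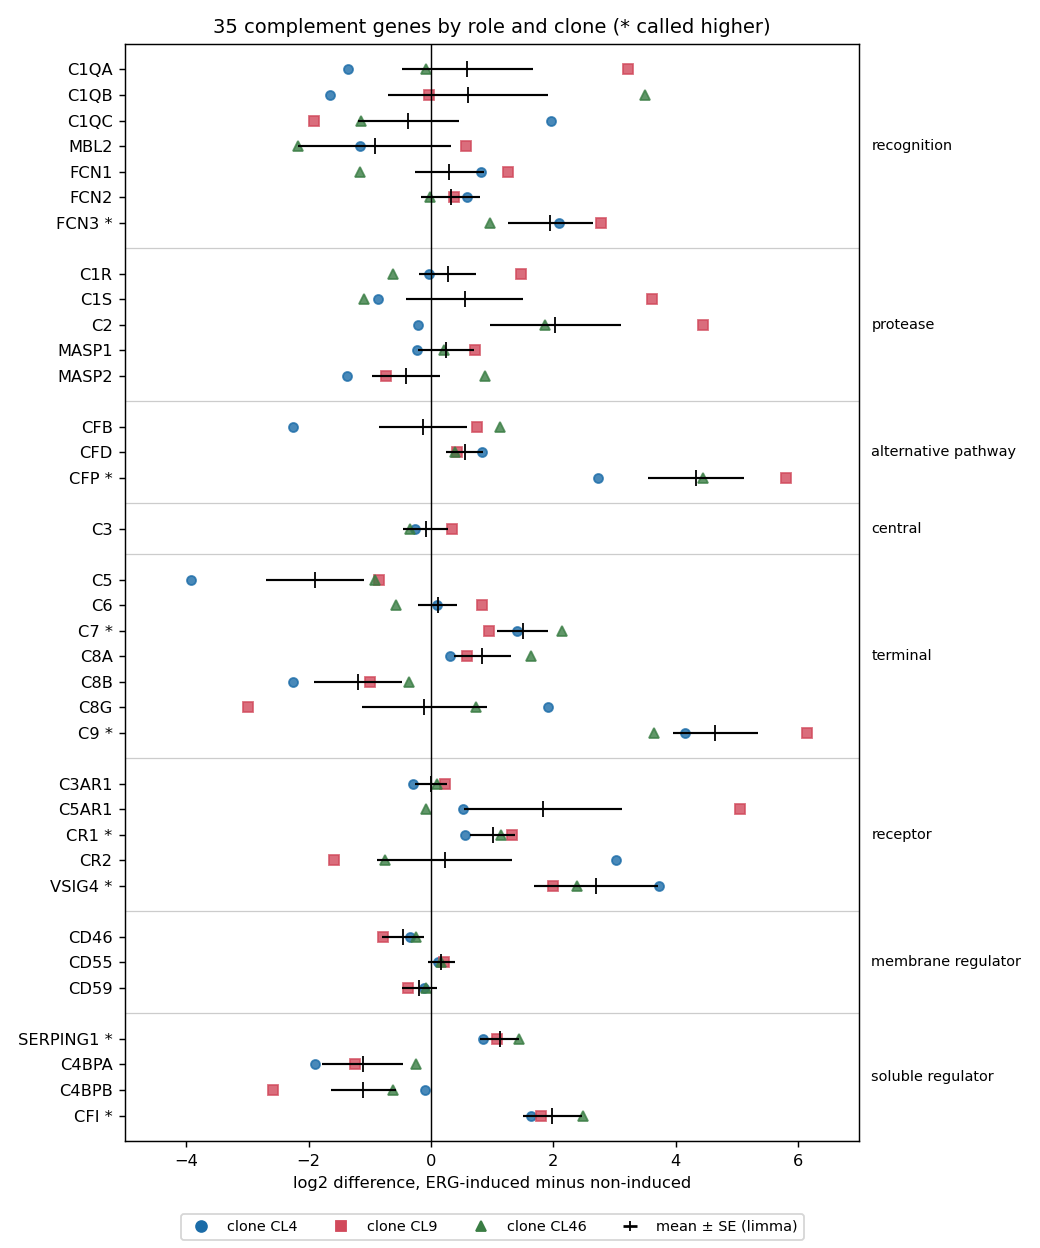
Log2 difference (x axis), ERG-induced minus non-induced, of the 35 complement genes (y axis) grouped by role. Symbols are the clones CL4, CL9 and CL46, black bars are the mean ± SE of limma, and asterisks mark the 8 called members, of which C9 and CFP lie farthest right at 4.65 and 4.33.

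C9, the pore-forming component of the membrane attack complex, had log2 ratios of 1.80, 1.34 and 0.85 in ERG-induced CL4, CL9 and CL46, against -2.35, -4.80 and -2.80 in the non-induced clones. The groups did not overlap, and the non-induced array of CL9 was the lowest. C9 rose 25.1-fold (log2 difference 4.65, SE 0.70), the 9th highest of 19775 genes, and by 3.90 on the log2 scale without CL9.
C7, which anchors the growing complex in the membrane, had 0.40, 0.41 and 0.16 in ERG-induced and -1.02, -0.53 and -1.98 in non-induced CL4, CL9 and CL46, so the groups were apart. It rose 2.82-fold (1.5, SE 0.42) and lost its call without CL4 (1.54). Of its 2 probe sets, 235979_at rose 8.14-fold (3.02, SE 0.51), with 4.0, 2.32 and 2.76 in the clones, and 202992_at gave -0.03 (SE 0.98), with -1.17, -0.44 and 1.51.
C5, whose cleavage opens the terminal pathway, was the lowest member. Its log2 ratios were -3.04, -0.77 and -0.09 in ERG-induced and 0.88, 0.08 and 0.84 in non-induced CL4, CL9 and CL46. The groups did not overlap, but the difference of -1.90 (SE 0.80) rested largely on CL4, was -0.89 without that clone and was not called.
C8B, a chain of the C8 protein, differed by -1.20 (SE 0.72), with -0.19, -1.30 and 0.16 in ERG-induced and 2.07, -0.30 and 0.52 in non-induced CL4, CL9 and CL46. It was below 0 in all 3 clones, although its groups overlapped, it was not called and it differed by -0.68 without CL4. Its partner chain C8A differed by 0.84 (SE 0.47), with 0.31, 0.58 and 1.63 in the clones, in the opposite direction. The third chain, C8G, ran from -2.99 in CL9 to 1.92 in CL4 (mean -0.11). C6, which joins C5b first, differed by 0.11 (SE 0.32). Of the 7 terminal genes, 2 rose and 5 were not called, beside 3.12% of all genes called higher and 6.32% lower. The 3 chains of the C8 protein did not share a direction.

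CFP encodes properdin, which stabilizes the alternative pathway convertase. Its log2 ratios were 0.79, 3.92 and 2.45 in ERG-induced CL4, CL9 and CL46, against -1.94, -1.90 and -2.0 in the non-induced clones. The non-induced arrays lay within 0.10 of each other, and the ERG-induced arrays spread over 3.13. CFP rose 20.1-fold (log2 difference 4.33, SE 0.78), the 11th highest of all genes, by 5.13 without CL4 and by 3.59 without CL9, and it rests on 1 probe set.
The other members of the alternative pathway were not called. CFD, factor D, the protease that cleaves factor B, differed by 0.55 (SE 0.30), with 0.84, 0.43 and 0.39 in the clones and groups that did not overlap. CFB, factor B, differed by -0.13 (SE 0.72), with -2.25, 0.75 and 1.12, and by 0.94 without CL4. Of its 2 probe sets, 202357_s_at gave -4.71 in CL4 and 2.44 and 1.84 in CL9 and CL46, and the other differed by -0.11 (SE 0.65). C3, on which all pathways converge, differed by -0.09 (SE 0.37), with -0.27, 0.35 and -0.35. The rise of CFP thus stood beside a CFB whose clones disagreed in direction and a C3 with small differences of either sign.

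**Figure D2:**
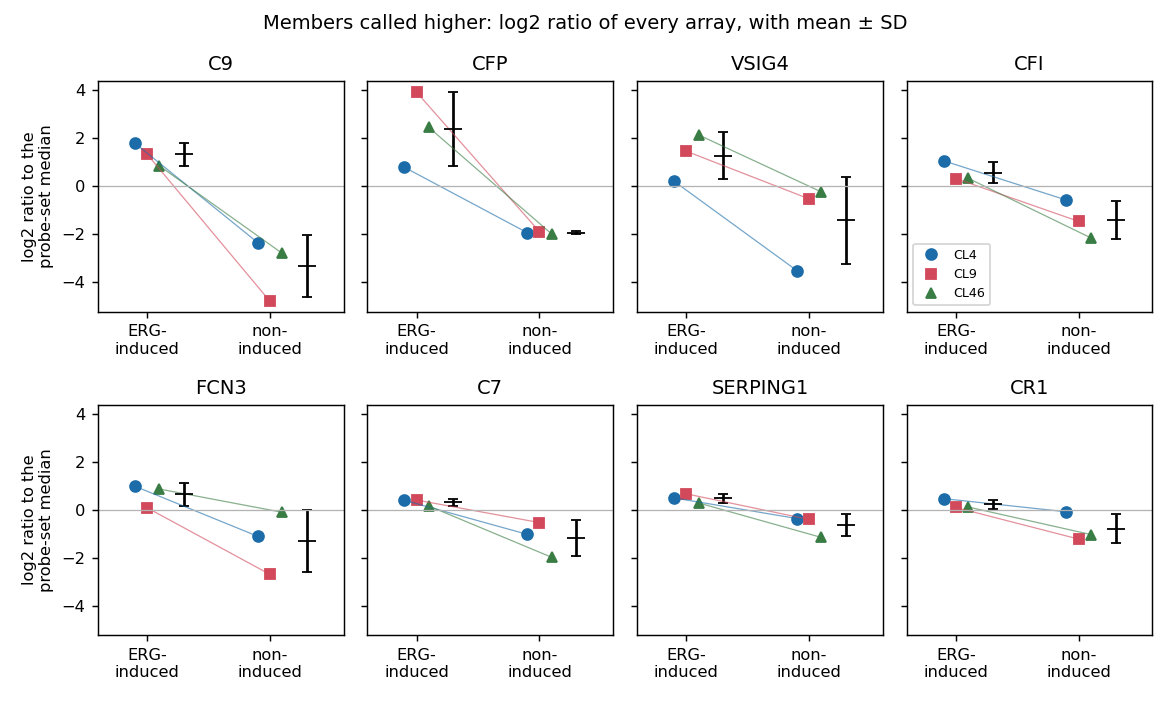
Log2 ratio to the probe-set median (y axis) of every array of the 8 called members, ERG-induced left and non-induced right. Symbols and lines join the arrays of a clone, and black bars are the mean ± SD of 3 arrays. No ERG-induced array overlaps a non-induced one, and the 3 non-induced arrays of CFP lie closest together, from -2.0 to -1.90.

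VSIG4, a macrophage receptor for C3 fragments that also restrains the alternative pathway, had log2 ratios of 0.21, 1.46 and 2.14 in ERG-induced CL4, CL9 and CL46, against -3.52, -0.53 and -0.24 in the non-induced clones. The non-induced array of CL4 was far below the other two. VSIG4 rose 6.50-fold (2.70, SE 1.01). Without CL9 (3.06) or CL46 (2.86) its difference was larger, but with fewer arrays it was no longer called.
CR1, the receptor for C3b and C4b that serves as a cofactor of their cleavage, lay just past the fold threshold. Its values were 0.47, 0.10 and 0.12 in ERG-induced and -0.08, -1.22 and -1.03 in non-induced CL4, CL9 and CL46. CR1 rose 2.01-fold (1.01, SE 0.37), but failed the threshold without CL9 (0.85) or CL46 (0.93). None of its 5 probe sets was called by itself, although all 5 lay above 0, from 0.61 to 1.65. With the median over its probe sets in place of the mean, CR1 differed by 0.88 and was not called.
C5AR1, the receptor for the chemoattractant C5a, differed by 1.83 (SE 1.29) and was not called. Its log2 ratios were 0.51, 0.47 and -0.08 in ERG-induced CL4, CL9 and CL46, against -0.01, -4.58 and 0.01 in the non-induced clones. The difference rested on the non-induced array of CL9 and was 0.22 without that clone. C3AR1, the receptor for C3a, differed by 0.00 (SE 0.26). CR2, the C3d receptor of B cells, had 3.02, -1.59 and -0.76 in the clones (mean 0.22).

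CFI, factor I, a serine protease that cleaves C3b and C4b, had 1.06, 0.32 and 0.33 in ERG-induced CL4, CL9 and CL46, against -0.58, -1.47 and -2.16 in the non-induced clones. The groups were apart, and CFI rose 3.93-fold in the mean over its probe sets (1.98, SE 0.48). Its 2 probe sets differed: 1555564_a_at rose 23.1-fold (4.53, SE 0.53), with 3.49, 5.64 and 4.46 in the clones, and 203854_at gave -0.58 (SE 1.19), with -0.22, -2.04 and 0.53. The first of these had log2 ratios of 0.85, 2.0 and 2.11 in ERG-induced and -2.64, -3.64 and -2.34 in non-induced clones, so that its groups lay far apart.
SERPING1, the C1 inhibitor, had 0.50, 0.67 and 0.29 in ERG-induced CL4, CL9 and CL46 and -0.36, -0.40 and -1.15 in the non-induced clones. It rose 2.17-fold (1.12, SE 0.32), but missed the call without CL9 (1.15) or CL46 (0.96). The spread among arrays of a group was small beside that of most called members.
The chains of the C4b-binding protein had differences below 0, and neither was called. C4BPA, the alpha chain, had -1.23, -1.77 and 0.39 in ERG-induced and 0.65, -0.53 and 0.62 in non-induced CL4, CL9 and CL46 (difference -1.12, SE 0.66). C4BPB, the beta chain, had 0.10, -1.26 and -0.74 in ERG-induced and 0.20, 1.33 and -0.11 in non-induced CL4, CL9 and CL46 (-1.11, SE 0.53). Both were below 0 in all 3 clones, and their groups overlapped. The size of C4BPB rested largely on CL9, at -0.36 without that clone. C4BPA differed by -0.74 without CL4, -1.06 without CL9 and -1.56 without CL46.

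The differences of the 3 membrane regulators lay between -0.46 and 0.17. CD55, which speeds the decay of the convertases, had log2 ratios of 0.03, 0.14 and 0.05 in ERG-induced and -0.09, -0.06 and -0.12 in non-induced CL4, CL9 and CL46. The groups did not overlap, the difference was 0.17 (SE 0.22), and its 3 probe sets gave 0.24, 0.10 and 0.15. The SE of limma draws on the variance of all genes. The SDs of CD55 itself were 0.06 in ERG-induced and 0.03 in non-induced arrays. Without variance moderation the linear model gave an unadjusted p of 0.012, and the difference stayed below a fold of 2. CD59, which blocks the assembly of C9, differed by -0.19 (SE 0.28), with 5 probe sets between -0.31 and -0.01. CD46, a cofactor of factor I, differed by -0.46 (SE 0.34) and was below 0 in all 3 clones, with 3 probe sets between -0.90 and -0.15. None of the 3 genes was called, and the probe sets of each lay within 0.14 (CD55), 0.30 (CD59) and 0.75 (CD46) of each other.

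Of the 7 recognition genes, 1 rose and 0 fell, where 3.12% of all genes were called higher and 6.32% lower. FCN3, a ficolin of the lectin pathway, had 0.99, 0.09 and 0.87 in ERG-induced CL4, CL9 and CL46, against -1.10, -2.69 and -0.10 in the non-induced clones. Its groups were apart by a small gap, and it rose 3.86-fold (1.95, SE 0.70), with its call lost without CL4 (1.88).
The chains of C1q, the recognition molecule of the classical pathway, did not move together. C1QA had -1.36, 3.22 and -0.09 in CL4, CL9 and CL46 (mean 0.59, SE 1.07), C1QB had -1.65, -0.04 and 3.49 (mean 0.60, SE 1.31), and C1QC had 1.96, -1.91 and -1.15 (mean -0.37, SE 0.82). C1QC was called lower without CL4 (-1.53). The lectin MBL2 differed by -0.92 (SE 1.25), with -1.17, 0.57 and -2.17. The ficolins FCN1 and FCN2 differed by 0.30 (SE 0.56) and 0.32 (SE 0.48), and the probe sets of each lay on both sides of 0.
Among the 5 proteases of these pathways 0 were called, beside 3.12% of all genes called higher and 6.32% lower. A probe set of 3 of these proteases was called higher, as were 2.82% of all probe sets. C2, which forms the catalytic part of the classical convertase, had -1.41, 2.09 and 1.68 in ERG-induced and -1.20, -2.35 and -0.19 in non-induced CL4, CL9 and CL46. It differed by 2.03 (SE 1.07) and was not called. Without CL9 it differed by 0.83, and without CL4 it was called higher (3.15), so the difference rested largely on CL9. Its probe set 203052_at rose 6.92-fold (2.79, SE 0.66) and lost the call without CL9 (2.06) or CL46 (2.57), and 1554533_at gave 1.27 (SE 1.64).
C1S, which cleaves C4 and C2, was measured in opposite directions. Its probe set 208747_s_at rose 8.87-fold (3.15, SE 0.90), with 2.32, 4.30 and 2.82 in the clones, and lost the call without CL4 (3.56). The other, 1555229_a_at, gave -4.07, 2.93 and -4.99 in the same clones (-2.04, SE 1.54) and was called lower without CL9 (-4.53). The gene mean, 0.55 (SE 0.96), described neither. C1R, its activator, differed by 0.27 (SE 0.47).
MASP1, a protease of the lectin pathway, had 1 of its 5 probe sets higher, 210680_s_at, at 5.28-fold (2.40, SE 0.46), with 2.36, 1.57 and 3.27 in the clones. The other 4 ran from -1.19 to 0.85, and the gene mean was 0.24 (SE 0.46). MASP2, which cleaves C4 and C2 in that pathway, differed by -0.41 (SE 0.56), with probe sets at -1.31, 0.95 and -0.87.

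**Figure D3:**
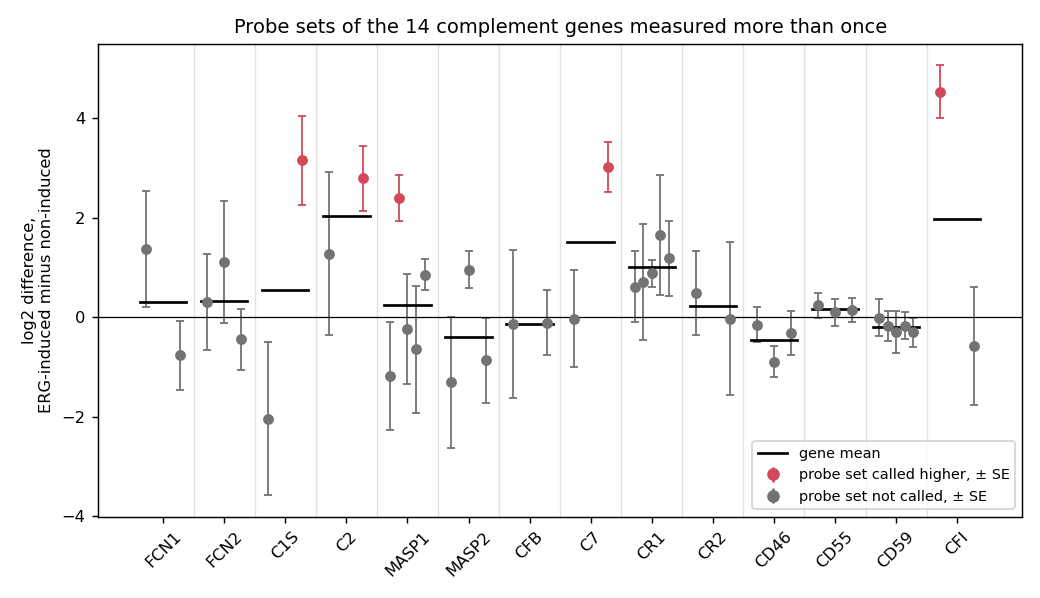
Log2 difference ± SE (y axis), ERG-induced minus non-induced, of each probe set of the 14 members measured by 2 or more (x axis). Red points are probe sets called higher, grey points are not called, and black lines are the gene means. The probe sets of CFI and C1S lie farthest apart, while those of CD55 and CD59 lie close to 0.

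Over the probe sets of the members, 10 of 62 were called higher and 0 lower, where 2.82% of all probe sets were called higher and 8.16% lower. Of the 10, 5 belong to C9, CFP, VSIG4, FCN3 and SERPING1, each of which has 1 probe set, and 5 to CFI, C7, C1S, C2 and MASP1. After adjustment over all probe sets 0 passed in limma (lowest adjusted p = 0.147), with 14 at an unadjusted p under 0.05, as 13.1% of all probe sets were. Of the 14 genes with 2 or more probe sets, 8 had probe sets on both sides of 0. The distance between the highest and lowest probe set was 5.19 in C1S, 5.11 in CFI, 3.59 in MASP1 and 3.05 in C7, against 0.30 in CD59 and 0.14 in CD55. Which transcripts the probe sets reach is not known from the files used here.

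The members also differed between the clones without DOX, where each clone has 1 array and the arrays are those of the contrast above. The 3 non-induced arrays of a member spanned a median of 1.45 on the log2 scale, against 0.88 over all genes, and the ERG-induced arrays spanned 1.36, against 1.00. C5AR1 (4.59), C1QB (4.54), CR2 (3.79), C1QA (3.34) and VSIG4 (3.28) spanned most among the non-induced clones, and CD55 (0.06), CFP (0.10) and C3AR1 (0.21) least. Which clone was low varied with the gene, CL4 for VSIG4 and CR2, CL9 for C5AR1, C1QA, C1S and C9, and CL46 for C1QB.

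Several members are neighbours in the RefSeq order (GRCh38.p14) of protein-coding genes, the only genes counted here. Some but not all of these groups had differences of 1 sign. In the pairs C1S with C1R and FCN2 with FCN1, each of the differences below was smaller than its SE. On chromosome 5, C9 (4.65) and C7 (1.5) are separated by 6 protein-coding genes, and C6 (0.11) follows C7 after 1 more. On chromosome 1, C4BPB, C4BPA, CD55, CR2 and CR1 follow each other directly, with CD46 after 1 more gene, and differed by -1.11, -1.12, 0.17, 0.22, 1.01 and -0.46. The adjacent C8A and C8B differed by 0.84 and -1.20, the adjacent C1S and C1R by 0.55 and 0.27, the adjacent FCN2 and FCN1 by 0.32 and 0.30, the adjacent C1QA, C1QC and C1QB by 0.59, -0.37 and 0.60, and C2 and CFB, with 1 gene between them on chromosome 6, by 2.03 and -0.13.

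**Figure D4:**
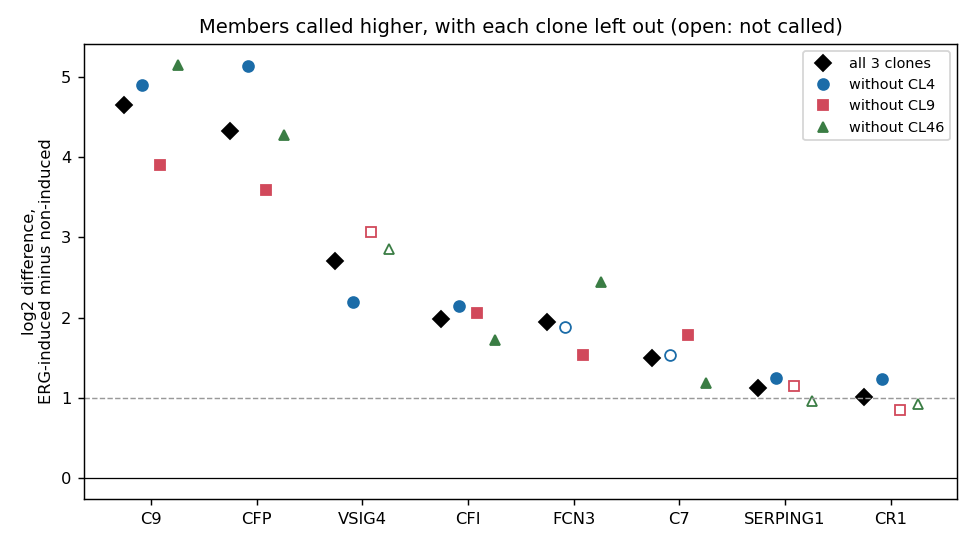
Log2 difference (y axis), ERG-induced minus non-induced, of the 8 called members (x axis) over all 3 clones and with each clone left out. Filled symbols are called, open symbols are not, and the dashed line is the fold threshold of 2. C9, CFP and CFI were called whichever clone was left out, and the other 5 lost their call in at least 1 case.

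Other genes of the complement system outside the list were counted for comparison. Of 35 such genes 27 were measured, of which 2 rose and 1 fell, beside called shares over all genes of 3.12% (higher) and 6.32% (lower). Their median log2 difference of 0.35 did not hold in every clone. CL4 gave a median of -0.35, CL9 one of 0.41 and CL46 one of 0.47. Only 11 of the 27 genes lay above 0 in CL4, against 18 in CL9 and 18 in CL46. CLU, clusterin, a soluble inhibitor of the terminal complex, had 0.53, 0.75 and 0.21 in ERG-induced CL4, CL9 and CL46 and -0.87, -0.12 and -1.14 in the non-induced clones. It rose 2.31-fold (1.21, SE 0.36), but missed the call without CL4 (1.11) or CL46 (1.14). CD93, a surface glycoprotein of endothelial and myeloid cells, rose 3.09-fold (1.63, SE 0.51), with its call lost without CL4 (1.43) or CL46 (1.81). SUSD4, a membrane protein with sushi domains, fell by 2.23 on the log2 scale (SE 0.60), with -3.94, -1.82 and -0.94 in the clones, and its difference was -1.38 without CL4, -2.88 without CL46 and -2.44 without CL9, where the call was lost. CPN1, a carboxypeptidase that inactivates C3a and C5a, differed by 2.13 (SE 0.90), CFHR2 of the factor H-related proteins by 1.92 (SE 1.16), the scavenger receptor COLEC12 by -1.13 (SE 0.64) and CSMD1, which has sushi domains, by -0.88 (SE 0.36), and these were not called. CPN1 differed by 0.96 without CL46 but was called higher after quantile normalization or with ratios below 0.1 raised to 0.1. Without CL4, CFHR2 was called higher (3.18) and COLEC12 lower (-1.85), against 0.92 and -0.67 without CL46 and no call.

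Since complement genes are known from hepatocytes and myeloid cells, markers of these and other cells were read in the same arrays. Of 10 hepatocyte markers, 1 was higher (APOA1) and 0 lower, and the mean log2 ratio of the list lay between -0.31 and -0.09 in ERG-induced and between -0.49 and 0.46 in non-induced arrays. Of 12 monocyte and granulocyte markers measured, 1 was higher (AIF1) and 0 lower, with a list mean between -0.56 and 0.48 in ERG-induced and between -0.37 and -0.20 in non-induced arrays. Of 11 megakaryocyte markers, 3 were higher (ITGB3, GP1BA and SELP) and 0 lower, with a list mean between -0.32 and 1.05 in ERG-induced and between -0.97 and -0.56 in non-induced arrays. Only in the megakaryocyte list did the list means of the groups not overlap, in the direction of the called members. Its median log2 difference in CL4, CL9 and CL46 was -0.03, 0.66 and 1.99. In these clones 5, 7 and 11 of the 11 genes lay above 0. Over all genes, 3.12% were called higher and 6.32% lower. In the erythroid list 0 of 9 were higher and 1 lower (TFRC), in the lymphocyte list 0 of 8 higher and 1 lower (CD3D), and in the fibroblast list 1 of 9 higher (FAP) and 1 lower (COL1A1). The ratios do not show which of these markers are absent, and the part of other cell types in the complement results was not tested.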

How the data were processed

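Expression was measured in 3 ERG-induced and 3 non-induced K562 cultures on 6 Affymetrix arrays. By GeneSpring the authors made the deposited linear ratios, each probe set divided by its median over the arrays (for 50737 of 54675 probe sets this median is 1 within 1e-05, for 3938 it is lower). For background correction and array scaling no method is given in the sources used here. Signal over background is unknown, and precision is limited by the number of arrays.

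Control probe sets (62) were removed. Probe sets with 1 gene symbol (41091) were turned to log2, with no floor, and averaged per gene. All 35 members matched RefSeq genes of GRCh38.p14 by gene ID. One further probe set carries a member among several symbols and was not used. The comparison used limma 3.58.1 and R 4.3.3 (lmFit and eBayes, no trend, two-sided, Benjamini-Hochberg over 19775 genes or 54613 probe sets). Errors are SEs of the log2 difference over 3 arrays against 3, with each variance moderated by limma toward that of all genes or probe sets. P-values rest on the same moderated variance. In it the clone, the culture and the array cannot be told apart.

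The members, gene lists and tests were chosen with earlier results of these data known. Every member is named, and of the other complement genes those called and the 4 with the next smallest p. Arrays of a clone are pairs by the labels, and their deviations from the group means correlated, over genes, at r = 0.04 (CL4), 0.05 (CL9) and 0.03 (CL46). Alternatives were the clone as a block, array centring, quantile normalization, a ratio floor of 0.1, the median over probe sets, no moderation, other thresholds and leaving out each clone. Leaving out probe sets with a median below 1 was added after the data were seen. Value columns of no mapped sample numbered 0.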

Additional observations from a re-analysis of the deposited data

How the results depend on the processing

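Of the 8 members called higher, 8 remained with the clone as a replicate block, with each array centred on its median, after quantile normalization, with ratios below 0.1 raised to 0.1, at a fold of 1.5 and without probe sets with a median below 1, and 7 with the median over probe sets. The replicate block changed no call of a member. Without variance moderation 5 members were called higher (FCN3, CR1 and VSIG4 were lost), and of all genes called higher there were 369. At an adjusted p under 0.05, limma called 0 members higher, 0 genes higher, 0 genes lower and 0 member probe sets higher, where 2544 genes had an unadjusted p under 0.05. With 1 clone left out, 5 to 7 members were higher (5 without CL9 or CL46) and 0 to 1 lower (C1QC, without CL4). All genes called higher then numbered 720, 691 and 678 without CL4, CL9 and CL46, and all genes called lower 1305, 1082 and 1005. The 7 without CL4 were 6 of the 8 and C2 as a new call, with FCN3 and C7 lost. Leaving out a clone also leaves fewer arrays. The calls of C7 (without CL4), SERPING1 (without CL9) and VSIG4 (without CL9 or CL46) were lost although their differences were not smaller. With each clone left out in turn, 1 member probe set was lower (of C1QC without CL4, C1S without CL9, MASP2 without CL46). At a fold of 1.5 it was 1, of CD46. The CFB probe set 202357_s_at ran from -1.44 to 2.14 with 1 clone left out and was called higher without CL4, against -0.14 and no call over all clones. The split of all calls, 67.0% lower, was 57.2% lower with arrays centred and 52.1% lower after quantile normalization, which moved the median of all genes to 0.08 and 0.11 and that of the members to 0.38 each. The cause of these shifts was not tested.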
